A study of Mus musculus with 137 samples.

Results

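The genes of the interleukin-12 family were followed in bone marrow-derived macrophages carrying a Beclin1 mutation: Il12a, Il12b, Il23a, Il27 and Ebi3, found by symbol and making up 5 of the 34573 gene symbols in the count tables. RNA was measured by Smart-Seq2, an oligo-dT primed method without molecular barcodes or strand information, in 3 cohorts named KO1, KO2 and KI. In KO1 and KO2, Beclin1flox/flox-LysM-Cre+ macrophages (KO) were set against Beclin1flox/flox-LysM-Cre- macrophages (WT), so both genotypes carry the floxed alleles. In KI, Beclin1F121A/F121A macrophages (F121A) were set against WT littermates. Marrow came from mice aged 7 weeks and was grown with M-CSF at 20 ng/ml for 7 days, and the cells were left at rest (0 h) or stimulated for 6 h or 24 h with LPS plus IFN-gamma, each at 100 ng/ml. KO1 had 3 numbered cultures per genotype, with the same numbers at each time, and the 3 repeat libraries of a culture at a time were summed. KO2 had 8 libraries per group (7 for WT at 24 h) and KI had 6. LysM-Cre is driven by the lysozyme 2 gene and deletes floxed sequence in macrophages, monocytes and neutrophils. Beclin1 is a core subunit of the lipid kinase complex that starts autophagy, and the F121A change is known to weaken its binding to BCL2.

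Interleukin-12 family cytokines are pairs of an alpha chain and a beta chain. Il12b encodes the beta chain p40, which joins p35 (Il12a) to form interleukin-12 and p19 (Il23a) to form interleukin-23. Ebi3 encodes the other beta chain, which joins p28 (Il27) to form interleukin-27 and can pair with p35 as interleukin-35. Macrophages and dendritic cells make these cytokines after microbial stimulation, and the receptors signal through JAK kinases and STAT proteins in T cells and NK cells. Interleukin-12 drives interferon-gamma production, interleukin-23 sustains interleukin-17 responses, and interleukin-27 can both start and restrain T cell responses.

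The genes lie on 5 chromosomes in GENCODE vM21 (mm10): Il12a at chr3:68690644-68698547 on the plus strand, Il12b at chr11:44400063-44414033 on the plus strand, Il23a at chr10:128296139-128298752 on the minus strand, Il27 at chr7:126589010-126594941 on the minus strand and Ebi3 at chr17:55952640-55957022 on the plus strand. Il27 overlaps Apobr on the opposite strand and Ebi3 overlaps the antisense gene Gm16712, and without strand information reads from such overlaps cannot be told apart. RefSeq (GRCm38.p6) promoter windows, from 250 bases before to 50 bases after an annotated start, were matched for 3 of the 5 members. These 4 windows are shown because the members tested rose with stimulation, and no window was matched for Il23a or Il27. Capitals mark matches to kB-like GGGNNNNNCC, the form bound by NF-kB proteins. The 4 windows are as follows, 5′ to 3′ on the plus strand.
Il12a, first start, chr3:68690394-68690693: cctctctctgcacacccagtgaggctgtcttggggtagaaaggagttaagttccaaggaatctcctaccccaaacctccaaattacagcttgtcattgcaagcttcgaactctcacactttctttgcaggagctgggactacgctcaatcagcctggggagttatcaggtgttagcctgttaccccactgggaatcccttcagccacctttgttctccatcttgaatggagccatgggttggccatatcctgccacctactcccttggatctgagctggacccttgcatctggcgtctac
Il12a, second start, chr3:68691174-68691473: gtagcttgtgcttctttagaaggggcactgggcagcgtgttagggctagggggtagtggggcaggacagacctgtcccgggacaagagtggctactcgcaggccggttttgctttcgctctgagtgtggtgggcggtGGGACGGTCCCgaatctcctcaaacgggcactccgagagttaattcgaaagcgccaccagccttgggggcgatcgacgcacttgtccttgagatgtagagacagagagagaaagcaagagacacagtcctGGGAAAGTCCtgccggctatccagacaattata
Il12b, chr11:44399813-44400112: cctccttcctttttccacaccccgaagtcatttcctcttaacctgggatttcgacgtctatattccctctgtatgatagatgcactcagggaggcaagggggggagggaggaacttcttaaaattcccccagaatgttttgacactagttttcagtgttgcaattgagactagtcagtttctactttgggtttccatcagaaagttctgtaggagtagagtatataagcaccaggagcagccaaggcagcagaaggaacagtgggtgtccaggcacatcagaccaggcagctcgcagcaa
Ebi3, chr17:55952373-55952672: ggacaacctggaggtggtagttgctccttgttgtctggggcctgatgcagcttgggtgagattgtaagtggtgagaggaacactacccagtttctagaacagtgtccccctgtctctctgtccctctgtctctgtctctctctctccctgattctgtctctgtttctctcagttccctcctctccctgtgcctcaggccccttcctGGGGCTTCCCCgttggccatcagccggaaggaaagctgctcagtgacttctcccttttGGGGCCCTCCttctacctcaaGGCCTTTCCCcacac
Both strands were searched for the kB-like motif, an IRF-like motif (GAAANNGAAA), an AP-1 motif (TGANTCA), C/EBP motifs (TTNCGCAA or TTNCACAA) and TATAAA. The second Il12a window held 3 kB-like matches, 2 of them overlapping, and the Ebi3 window held 6, of which 4 overlap at positions -44 to -34 from the start. Neither the first Il12a window nor the Il12b window held a match to any of the motifs as spelled. Of 32851 mouse promoter windows, 50.8% held the kB-like motif, 3.44% the IRF-like motif, 7.81% the AP-1 motif, 4.59% a C/EBP motif and 13.6% TATAAA. These matches describe letters only and say nothing of binding.

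KI libraries held 3574158 to 11786453 counts, KO2 libraries 1448218 to 15627379 and KO1 libraries 1898574 to 6579185. Becn1 was called lower in KO than in WT at each time in KO1 (log2 fold changes of -1.51, -1.52 and -1.41 at 0, 6 and 24 h) and KO2 (-3.28, -3.31 and -2.63) by edgeR's quasi-likelihood test, with the largest adjusted p at 0.0166. The female transcript Xist was at 1.62 CPM (the library's counts scaled to a common total over genes) or less in every KO2 KO library and at 69.99 to 339.9 CPM in every KO2 WT library, while the Y-linked Ddx3y was at 5.33 to 24.3 CPM in KO and at most 0.519 CPM in WT. In KO2, genotype and sex therefore cannot be told apart. The labels do not say whether libraries or cultures come from separate mice, so p-values measure the spread between these samples, which may be technical. Fewer producing cells and less RNA per cell cannot be told apart in such bulk samples.

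A member was called at an adjusted p below 0.05 over all genes tested (13693 in KO1, 10794 in KO2 and 11500 in KI). Stimulation for 6 h raised every member that was tested, 5 of 5 in KO1 and 4 of 4 in KO2 and in KI, where Il23a had too few counts for the fit. The share of all genes called between 6 h and 0 h was 55.3% in KO1 KO, 56.7% in KO1 WT, 74.3% in KO2 KO, 70.8% in KO2 WT, 74.5% in F121A and 73.5% in KI WT. Between 24 h and 6 h the same members fell except Ebi3 in KO1, giving 4 of 5 in both genotypes of KO1 and 4 of 4 in all arms of KO2 and KI. The background there was 48.1% in KO1 KO, 54.6% in KO1 WT, 55.5% in KO2 KO, 59% in KO2 WT, 65.1% in F121A and 65.4% in KI WT. TMM scaling raised the 6 h over 0 h changes by 0.79 to 1.29 on the log2 scale relative to scaling by total counts, and every rise kept its direction under either scaling.

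Fewer members were called between genotypes. In KO1, 0 of 5 were called at 0, 6 and 24 h, where 0.0219%, 0.0219% and 0.0073% of all genes were called. By unadjusted p below 0.05, 3, 0 and 1 of these members passed in edgeR, and DESeq2 called 2, 0 and 0. In KO2, 1, 2 and 3 of 4 were called at 0, 6 and 24 h against 8.28%, 15.4% and 11.3% of all genes. In KI, 2, 1 and 2 of 4 were called against 2.94%, 11.5% and 7.2% of all genes.

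**Figure D1:**
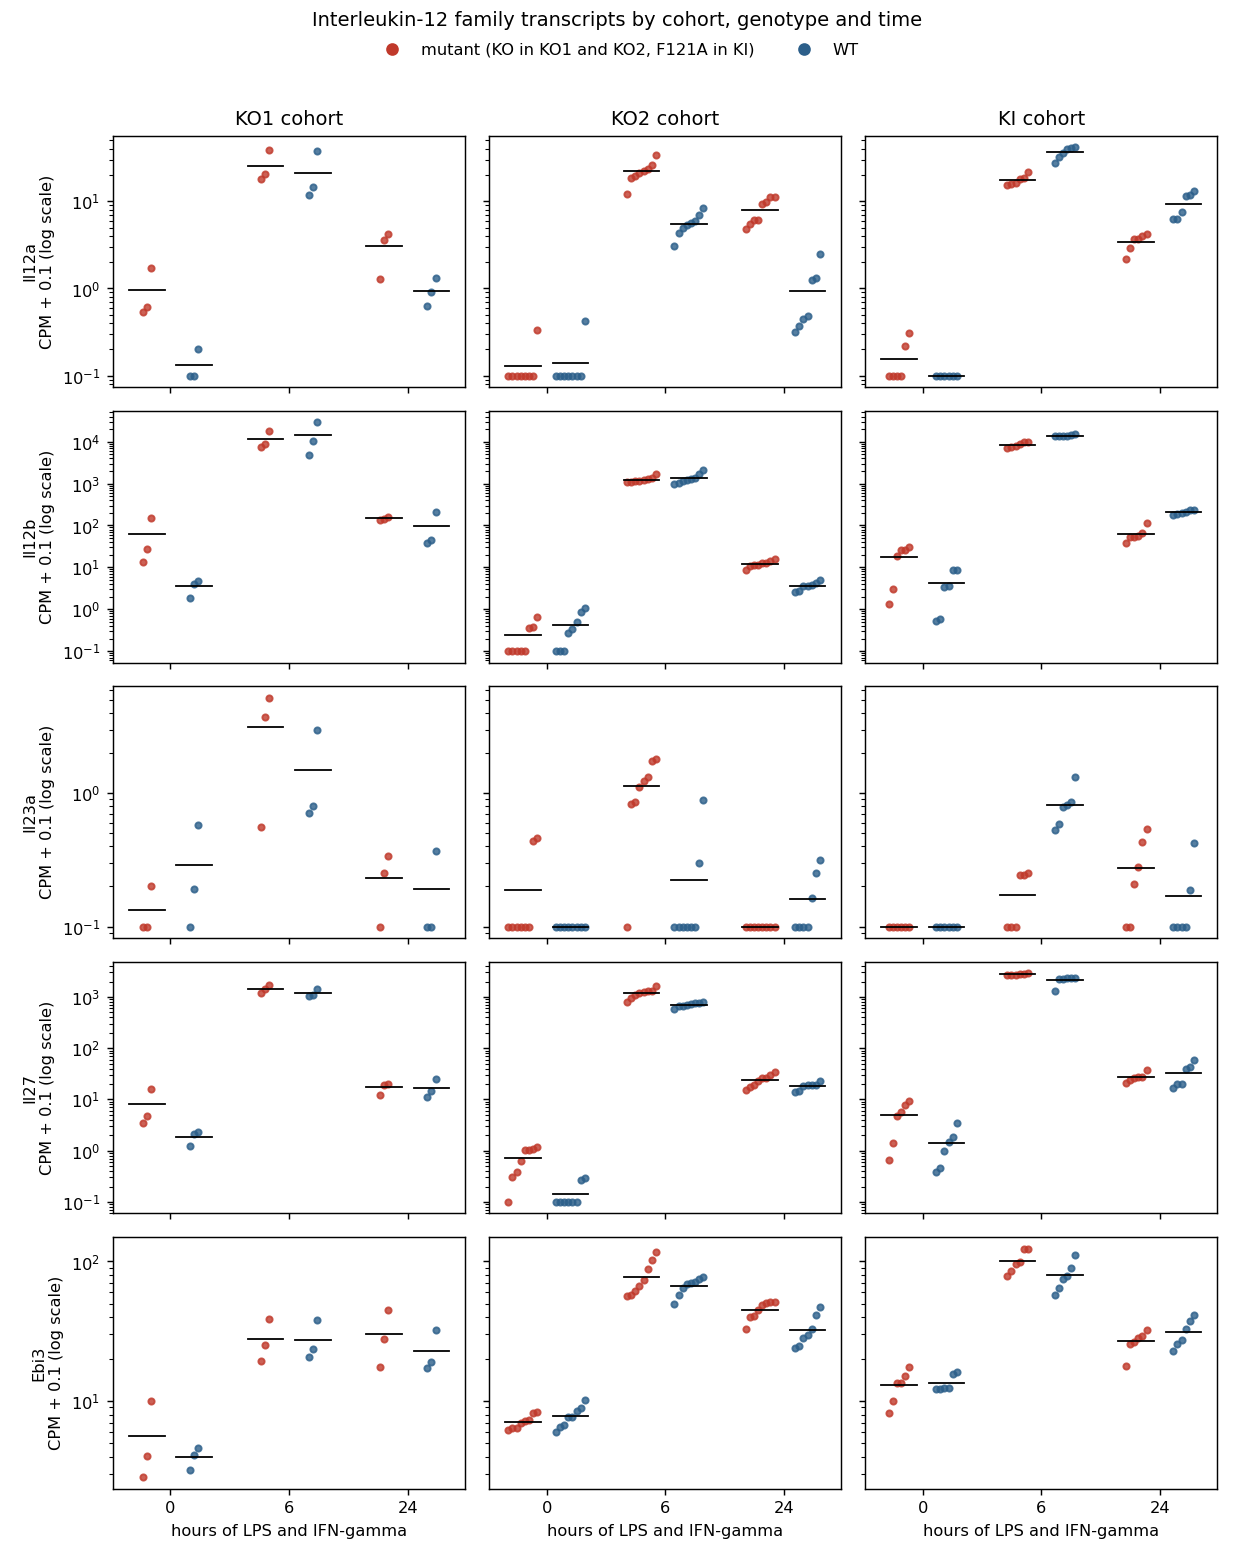
CPM + 0.1 on a log scale (vertical) against hours of LPS and IFN-gamma (horizontal) for each member and cohort. Points are KO1 cultures or KO2 and KI libraries sorted by value, and black lines are means; Il12b peaked at 6 h in every group, while Ebi3 stayed close to its 6 h level at 24 h in KO1.

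Il12b, the p40 chain shared by interleukin-12 and interleukin-23, had the highest level of the members per kb of exon at 6 h in KO1 and KI, but not in KO2. Its mean level at 6 h was 11530 ± 5988 CPM in KO and 14740 ± 12560 CPM in WT of KO1 (SD, n = 3 each), 1241 ± 195 CPM in KO and 1356 ± 376 CPM in WT of KO2 (n = 8 each), and 8486 ± 1055 CPM in F121A and 14050 ± 529 CPM in WT of KI (n = 6 each). From high to low the groups stood as KO1 WT, KI WT, KO1 KO, F121A, KO2 WT and KO2 KO. Neighbours in that order overlapped, except that every F121A library lay above every KO2 library. Per kb, KO2 had 631 CPM of Il12b and 1162 CPM of Il27 in KO, and 690 CPM of Il12b and 694 CPM of Il27 in WT. Il12b took 3.128% of all counts in 1 KO1 WT library. Group means at rest were at most 63.3 CPM, and at 24 h they were 0.26% to 1.47% of the 6 h mean.

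In KI, F121A changed Il12b in opposite directions at rest and after stimulation. At rest it was at 1.24, 21.9 and 30.5 CPM (lowest, median and highest) in F121A and at 0.430, 3.39 and 8.58 CPM in WT. Of the F121A libraries, 4 of 6 lay above all WT libraries and the others overlapped, and Il12b rose by 2.19 ± 0.48 on the log2 scale (± SE, edgeR quasi-likelihood test, adjusted p = 0.00354). The resting difference was not called in a fit of the resting groups alone (2.20, adjusted p = 0.115) or of libraries summed by number (2.16, adjusted p = 0.0716). After 24 h of stimulation it was at 39.1, 54.4 and 115.1 CPM in F121A and at 178.3, 204.2 and 238.9 CPM in WT. The groups did not overlap, and Il12b fell by 1.66 ± 0.38 (edgeR adjusted p = 0.00352). At 6 h it was at 7239, 8278 and 9820 CPM in F121A and at 13480, 13900 and 14950 CPM in WT, again without overlap. The log2 fold change at 6 h was -0.68 ± 0.37 and was not called in the fit of all 6 groups (edgeR adjusted p = 0.263), whereas a fit of the 6 h groups alone gave -0.72 and called it (adjusted p = 4.68e-05). The genotype effect differed from that at rest by -2.87 ± 0.61 at 6 h and by -3.86 ± 0.61 at 24 h (edgeR interaction, adjusted p = 0.00328 and 8.45e-05), and the 6 h value was not called with libraries summed by number (-2.83, adjusted p = 0.0507). Of 4 members, 1 was called in the interaction at 6 h and 2 at 24 h, against 3.3% and 4.26% of all genes.

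In KO2, Il12b did not pass the test at 6 h and was higher in KO at 24 h. The 6 h level was 1076, 1167 and 1657 CPM in KO (lowest, median and highest) and 1002, 1268 and 2109 CPM in WT, a log2 fold change of -0.35 ± 0.15 (edgeR adjusted p = 0.101). The 24 h level was 8.76, 12 and 15.6 CPM in KO and at 2.43, 3.47 and 4.93 CPM in WT. All 8 KO libraries lay above all 7 WT libraries, and Il12b rose by 1.82 ± 0.21 on the log2 scale (edgeR adjusted p = 1.12e-09). At rest the 8 libraries held 7 Il12b counts in KO and 10 in WT, so the interaction with time (2.44 ± 0.84 at 24 h, edgeR adjusted p = 0.0706) rests on few counts.

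In KO1, the resting level of Il12b was 13.4, 148.7 and 27.9 CPM in KO cultures S36, S37 and S38 and 1.71, 4.71 and 3.85 CPM in WT cultures S33, S34 and S35. The 3 KO cultures lay above the 3 WT cultures, but the log2 fold change of 3.93 ± 0.84 did not pass the test (edgeR adjusted p = 0.192), although DESeq2 called it (3.94, adjusted p = 0.00542). The repeats of S37 were at 171, 219 and 36.3 CPM, and without that culture the edgeR value was 2.59 (adjusted p = 0.322). At 6 h the level was 8770, 18390 and 7410 CPM in KO and 10690, 28820 and 4696 CPM in WT. At 24 h it was 136.1, 144.6 and 163.4 CPM in KO and 210.2, 37.5 and 44.2 CPM in WT. Both stimulated times overlapped between genotypes, and the spread between WT cultures at 6 h exceeded the difference between genotypes.

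Il12a, the p35 chain of interleukin-12, was higher in KO2 KO and lower in F121A than in their WT, at 6 h and at 24 h and without overlap. In KO2 at 6 h it was at 12.1, 21.4 and 34.1 CPM in KO (lowest, median and highest, n = 8) and at 2.94, 5.33 and 8.19 CPM in WT (n = 8). At 24 h it was at 4.77, 7.61 and 11.1 CPM in KO (n = 8) and at 0.217, 0.385 and 2.37 CPM in WT (n = 7). All 8 KO libraries lay above every WT library at both times. Il12a rose by 1.77 ± 0.20 on the log2 scale at 6 h (edgeR quasi-likelihood test, adjusted p = 4.94e-10) and by 3.26 ± 0.27 at 24 h (adjusted p = 2.99e-14).

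In KI the 6 h level of Il12a was 15.3, 16.9 and 21.5 CPM in F121A and 27.5, 37.8 and 41.7 CPM in WT (n = 6 each). The 24 h level was 2.09, 3.58 and 4.11 CPM in F121A and 6.10, 9.40 and 13.1 CPM in WT. All 6 F121A libraries lay below every WT library at both times. Il12a fell by 1.01 ± 0.15 on the log2 scale at 6 h (edgeR adjusted p = 9.31e-06) and by 1.44 ± 0.18 at 24 h (adjusted p = 1.23e-06).

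In KO1 the 6 h level of Il12a overlapped between genotypes, at 17.7, 38.6 and 20.4 CPM in KO cultures and 11.7, 37.7 and 14.3 CPM in WT cultures (log2 fold change 0.30 ± 0.39, edgeR adjusted p = 0.997). At 24 h it was 4.08, 1.19 and 3.53 CPM in KO and 0.812, 0.527 and 1.21 CPM in WT, with 2 of 3 KO cultures above all WT cultures (1.76 ± 0.56, adjusted p = 0.579). At rest, 27 counts were found over the KO libraries and 1 over the WT libraries, a rate ratio of 26.1 with an exact 95% interval of 4.31 to 1070 that covers counting error only. S37 held 18 of the 27 counts, and the fitted difference was not called (adjusted p = 0.445).

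Resting Il12a had few counts in the other cohorts, with 1 count in KO and 1 in WT of KO2, and 2 in F121A and 0 in WT of KI. Over a floor of 3 counts for the 6 resting KI WT libraries together, Il12a was at least 500.7-fold higher in KI WT at 6 h. The genotype effect on Il12a was not called by edgeR as different from that at rest (interaction adjusted p of 0.738 and 0.476 at 6 h and 24 h in KO2, and 0.329 and 0.251 in KI). DESeq2 called the 24 h interaction in KO2 (3.43, adjusted p = 0.0248), with 1 resting count in each genotype. The mean Il12a level at 6 h was 25.55 ± 11.4 CPM in KO and 21.3 ± 14.3 CPM in WT of KO1, 21.98 ± 6.41 CPM in KO and 5.45 ± 1.59 CPM in WT of KO2, and 17.5 ± 2.35 CPM in F121A and 36.3 ± 5.66 CPM in WT of KI (SD). From high to low the order was KI WT, KO1 KO, KO2 KO, KO1 WT, F121A and KO2 WT. KO2 WT lay apart below all others, and each other neighbouring pair overlapped.

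**Figure D2:**
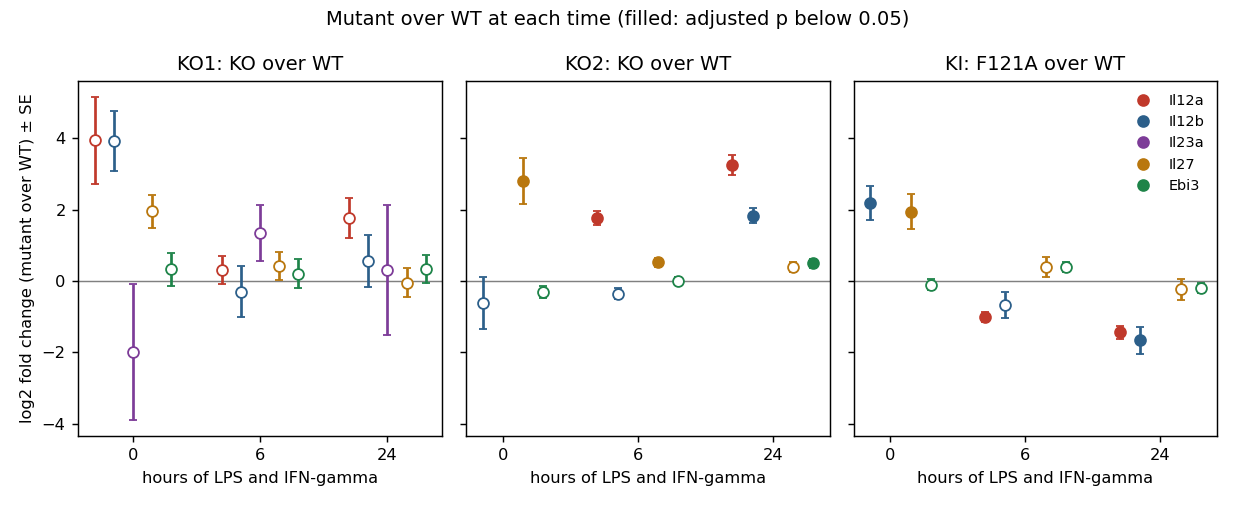
Log2 fold change of mutant over WT with its SE (vertical) at 0, 6 and 24 h (horizontal) for each member in each cohort; filled points have an adjusted p below 0.05, and a group pair with at most 3 counts on each side has no point. Il12a was above 0 in KO2 and below 0 in KI at both stimulated times.

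The KO effect in KO2 was compared with the F121A effect in KI by a fit of all 3 cohorts (13369 genes). Of 5 members, edgeR called 0 at 0 h, 2 at 6 h and 2 at 24 h, against 2.15%, 8.97% and 4.82% of all genes. Those called at 6 h included Il23a, whose few counts are given below. At 0 h, 0 members passed at an unadjusted p below 0.05 and DESeq2 called 1. For Il12a the KO2 effect minus the KI effect was 2.81 ± 0.29 on the log2 scale at 6 h (adjusted p = 8.12e-13) and 4.67 ± 0.38 at 24 h (adjusted p = 9.33e-18). For Il12b it was 0.37 ± 0.47 at 6 h (adjusted p = 0.726) and 3.46 ± 0.55 at 24 h (adjusted p = 1.59e-06). Cohort, sex in KO2 and mutation change together in this comparison and cannot be told apart.

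Because p35 and p40 pair one to one, the transcripts were compared per kb of exon length (1.701 kb for Il12a and 1.967 kb for Il12b). Il12a was the scarcer transcript at 6 h in every unit of every group. As a percentage of Il12b per kb, its median at 6 h was 2.24% in KO and 0.468% in WT of KO2, 0.236% in F121A and 0.305% in WT of KI, and 0.243% in KO and 0.151% in WT of KO1. The KO2 values ran from 1.03% to 3.05% in KO and from 0.273% to 0.617% in WT, without overlap, while the genotypes overlapped in KI and KO1. At 24 h the medians were 79.1% in KO and 17.01% in WT of KO2, 6.92% in F121A and 5.48% in WT of KI, and 2.495% in KO and 1.63% in WT of KO1. The genotypes overlapped in every cohort at 24 h, in KO2 at 35.3% to 121.3% in KO and 7.23% to 74.8% in WT. The KO2 WT libraries held 1 to 18 Il12a counts each at 24 h. By median the ratio was higher at 24 h than at 6 h in every group, and Il12b kept a smaller share of its 6 h level than Il12a did.

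**Figure D3:**
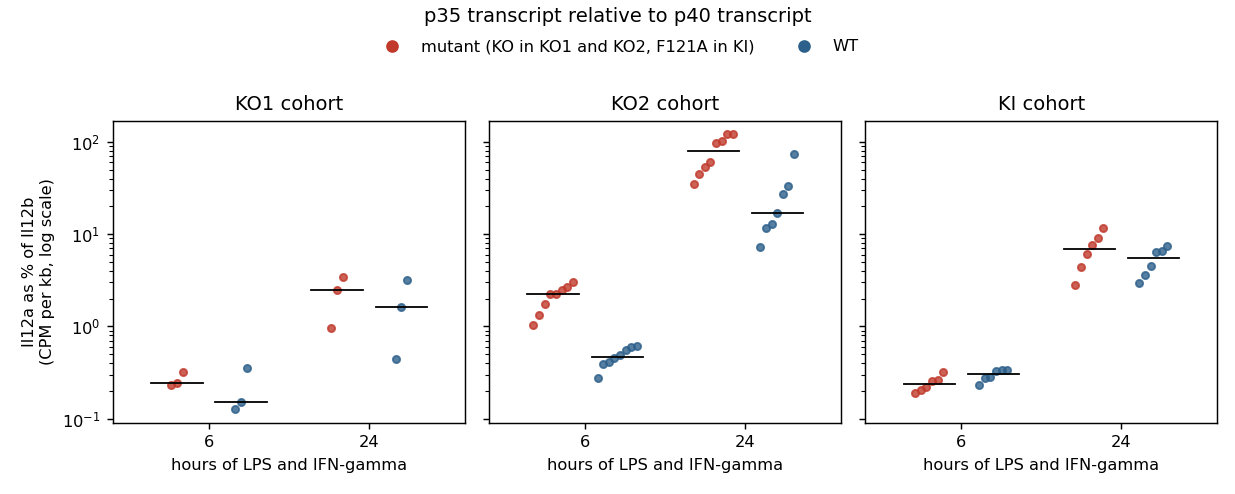
Il12a as a percentage of Il12b, both in CPM per kb of exon (vertical, log scale), at 6 h and 24 h (horizontal) in each cohort. Points are cultures (KO1) or libraries (KO2, KI) sorted by value and black lines are medians; at 6 h the KO2 KO libraries (1.03% to 3.05%) lay above the KO2 WT libraries (0.273% to 0.617%).

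Il23a, the p19 chain of interleukin-23, had the lowest level of the members per kb of exon at 6 h in every group. Its mean 6 h level was 3.05 ± 2.37 CPM in KO and 1.40 ± 1.29 CPM in WT of KO1, 1.03 ± 0.549 CPM in KO and 0.124 ± 0.279 CPM in WT of KO2, and 0.0736 ± 0.0807 CPM in F121A and 0.718 ± 0.280 CPM in WT of KI (SD). The order from high to low was KO1 KO, KO1 WT, KO2 KO, KI WT, KO2 WT and F121A, and every neighbouring pair overlapped. At 6 h in KO2, 49 counts were found over 8 KO libraries, 7 of which held counts, and 4 over 8 WT libraries, 2 of which held counts. The rate ratio was 9.17, with an exact 95% counting interval of 3.36 to 35. At 6 h in KI, 3 counts were found in F121A, where 3 of 6 libraries held counts, and 34 in WT, where all 6 did. The rate ratio was 0.0856 (0.0168 to 0.272), and all F121A libraries lay below all WT libraries.

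Il23a did not pass the filter on low counts in the KO2 and KI fits. Without that filter the 6 h log2 fold change was 2.84 in KO2 (edgeR adjusted p = 0.00475) and -3.26 in KI (adjusted p = 0.00276). Il23a passed the filter in the fit of all cohorts, which adds the KO1 cultures with their higher mean levels at 6 h. There the KO2 effect minus the KI effect was 6.12 ± 1.17 at 6 h (edgeR adjusted p = 1.02e-04) and -3.91 ± 1.86 at 24 h (adjusted p = 0.287). The 6 h value still rests on the 49 and 4 counts in KO2 and the 3 and 34 counts in KI. In KO1 the 6 h level was 5.10, 0.454 and 3.61 CPM in KO cultures and 0.698, 0.613 and 2.89 CPM in WT cultures (1.35 ± 0.78, adjusted p = 0.997). At 24 h the counts were 4 in KO and 3 in WT of KO1, 0 in KO and 4 in WT of KO2, and 9 in F121A and 3 in WT of KI. These counts were too few to give a direction at 24 h.

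Il27, the p28 chain of interleukin-27, had a mean 6 h level of 1439 ± 241 CPM in KO and 1209 ± 212 CPM in WT of KO1, 1186 ± 256 CPM in KO and 708.4 ± 71.6 CPM in WT of KO2, and 2756 ± 104 CPM in F121A and 2156 ± 415 CPM in WT of KI (SD). From high to low the order was F121A, KI WT, KO1 KO, KO1 WT, KO2 KO and KO2 WT. F121A lay above KI WT without overlap, and each other neighbouring pair overlapped. In KO2 at 6 h it was at 787, 1209 and 1636 CPM in KO (lowest, median and highest) and at 580, 711 and 804.5 CPM in WT. Of the KO libraries, 7 of 8 lay above all WT libraries, and Il27 rose by 0.52 ± 0.12 on the log2 scale (edgeR quasi-likelihood test, adjusted p = 0.00143). At 24 h it was at 15.1, 24.2 and 34.9 CPM in KO and at 13.7, 18.7 and 22.5 CPM in WT, overlapping and not called (0.40 ± 0.14, adjusted p = 0.0608).

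Resting Il27 was low in KO2, with 23 counts over 7 of 8 KO libraries and 2 counts over 2 of 8 WT libraries. The rate ratio was 11.7, with an exact 95% counting interval of 2.90 to 102.7, and the log2 fold change of 2.81 ± 0.64 was called (edgeR adjusted p = 0.00185). The KO effect after stimulation minus that at rest was -2.28 ± 0.65 at 6 h and -2.41 ± 0.66 at 24 h on the log2 scale (edgeR interaction, adjusted p = 0.03 and 0.0146). In those interactions 1 of 4 members was called at 6 h and 2 at 24 h, against 4.07% and 5.91% of all genes. The 6 h interaction lost its call without any 1 of 5 resting libraries, where the adjusted p reached 0.0782, and with total counts (-2.34, adjusted p = 0.0541) or summed libraries (-2.58, adjusted p = 0.137). With summed libraries the 24 h interaction was not called either (-2.73, adjusted p = 0.0787).

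In KI, resting Il27 was at 0.565, 5.09 and 9.20 CPM in F121A and at 0.287, 1.12 and 3.36 CPM in WT. Of the F121A libraries, 4 of 6 lay above all WT libraries, and Il27 rose by 1.94 ± 0.50 on the log2 scale (edgeR adjusted p = 0.0169). That call was lost without F121A replicate 2 (1.61, adjusted p = 0.094) or replicate 5 (1.69, adjusted p = 0.0625), and without WT replicate 1 (1.74, adjusted p = 0.0663) or replicate 2 (1.84, adjusted p = 0.0588), and in a fit of the resting groups alone (1.98, adjusted p = 0.116). At 6 h the level was 2634, 2773 and 2895 CPM in F121A and 1316, 2321 and 2376 CPM in WT, without overlap but not called (0.39 ± 0.28, adjusted p = 0.432). The 24 h level was 20.9, 26.8 and 37.02 CPM in F121A and 17, 29.5 and 59.1 CPM in WT (-0.23 ± 0.30, adjusted p = 0.756). The interaction was -1.55 ± 0.58 at 6 h (adjusted p = 0.144) and -2.18 ± 0.58 at 24 h (adjusted p = 0.0218), and the call at 24 h was lost without resting F121A replicate 2 or resting WT replicate 1, with an adjusted p of up to 0.0687.

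In KO1, resting Il27 was at 3.40, 15.8 and 4.66 CPM in KO cultures and at 1.11, 2.03 and 2.17 CPM in WT cultures, without overlap. The log2 fold change of 1.95 ± 0.46 was not called (edgeR adjusted p = 0.235), although DESeq2 called it (1.96, adjusted p = 0.00854). Without S37, the highest KO culture, the edgeR value was 1.20. At 6 h it was at 1676, 1445 and 1195 CPM in KO and at 1110, 1453 and 1065 CPM in WT, and at 24 h at 19.2, 19.8 and 12.3 CPM in KO and at 24.8, 14.4 and 11.02 CPM in WT. Both stimulated times overlapped. In the KO1 interactions of genotype with time, 0 of 5 members and 0% of all genes were called at 6 h, and 0 of 5 and 0% at 24 h. At an unadjusted p below 0.05, 3 members passed at 6 h and 2 at 24 h in edgeR, and DESeq2 called 0 at either time.

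Ebi3, the beta chain of interleukin-27, was the only member with group means of more than 3 CPM in every resting group, and of the members tested in every cohort it had the smallest log2 rise at 6 h in each arm. Its resting mean was 5.52 ± 3.82 CPM in KO and 3.895 ± 0.71 in WT of KO1, 7.04 ± 0.81 in KO and 7.69 ± 1.41 in WT of KO2, and 12.9 ± 3.43 in F121A and 13.4 ± 1.88 in WT of KI (SD). It rose at 6 h by 3.75 ± 0.46 in KO and 3.87 ± 0.47 in WT of KO1, by 4.26 ± 0.15 in KO and 3.95 ± 0.14 in WT of KO2, and by 4.27 ± 0.16 in F121A and 3.77 ± 0.16 in WT of KI (log2 ± SE). The 6 h means were 27.65 ± 10.0 CPM in KO and 27.3 ± 9.15 CPM in WT of KO1, 77.9 ± 22.4 CPM in KO and 66.7 ± 9.31 CPM in WT of KO2, and 100.9 ± 18.4 CPM in F121A and 79.5 ± 19.4 CPM in WT of KI (SD). From high to low the order was F121A, KI WT, KO2 KO, KO2 WT, KO1 KO and KO1 WT. Neighbours overlapped, except that every KO2 WT library lay above every KO1 culture.

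In KO2 at 24 h, Ebi3 was at 32.99, 46.6 and 51.5 CPM in KO (lowest, median and highest) and at 23.8, 29.5 and 47.3 CPM in WT. The groups overlapped, with 4 of 8 KO libraries above all WT libraries, and Ebi3 rose by 0.50 ± 0.13 on the log2 scale (edgeR adjusted p = 0.00469). That effect exceeded the one at rest by 0.80 ± 0.21 (edgeR interaction, adjusted p = 0.00975), and scaling by total counts alone gave 0.58 (adjusted p = 0.0994). At 6 h in KI, Ebi3 was at 79.2, 97.1 and 123.4 CPM in F121A and at 57.1, 76.6 and 111.7 CPM in WT (0.39 ± 0.14, adjusted p = 0.0523). The other genotype comparisons of Ebi3 were not called.

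The members differed in how much of the 6 h level was left at 24 h. Il12b kept 0.98% in KO and 0.26% in WT of KO2, 0.75% in F121A and 1.47% in WT of KI, and 1.28% in KO and 0.66% in WT of KO1. Il27 kept 0.99% to 2.53% over the 6 arms, Il12a 3.99% to 35.9% and Ebi3 26.4% to 108.7%. Il12a kept 35.9% in KO and 15.6% in WT of KO2, and 19.2% in F121A and 25.65% in WT of KI. Of the 2 chains of interleukin-27, Ebi3 thus kept the larger share. Il27 exceeded Ebi3 per kb by a median of 12.5-fold to 60.7-fold over the 6 arms at 6 h, and the median ratio was 0.4999 to 1.09 at 24 h.

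**Figure D4:**
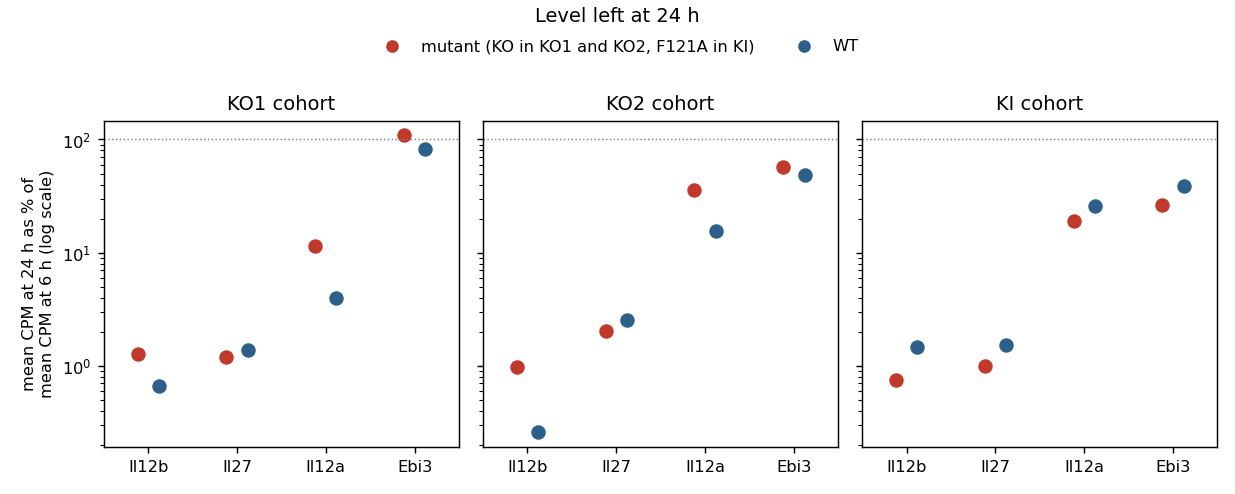
Mean CPM at 24 h as a percentage of the mean at 6 h (vertical, log scale) for 4 members (horizontal) in each cohort; 1 point per genotype, with the dotted line at 100%. Il12b and Il27 kept at most 2.53%, whereas Ebi3 kept 26.4% to 108.7%.

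The resting levels of Il12b and Il27 were set beside those of other strongly induced genes. For 22 genes with an average log2 rise of at least 8 and at least 100 CPM at 6 h in all cohorts (Il6, Il1b, Nos2 and Cxcl9 among them, chosen after the data were seen), the resting level was expressed as a percentage of the 6 h mean. The median over libraries was 0.469% in KO and 0.145% in WT of KO1, 0.0820% in KO and 0.0294% in WT of KO2, and 0.292% in F121A and 0.0755% in WT of KI. For Il12b it was 0.191% in KO and 0.0185% in WT of KO1, 0% in KO and 0.0151% in WT of KO2, and 0.257% in F121A and 0.0241% in WT of KI. For Il27 it was 0.405% in KO and 0.1499% in WT of KO1, 0.0606% in KO and 0% in WT of KO2, and 0.185% in F121A and 0.0518% in WT of KI. The 22 genes thus had a higher median resting share in the mutant than in WT of each cohort, and so did Il27, whereas Il12b did so in KO1 and KI but not in KO2. The KO2 shares rest on few resting counts, 7 in KO and 10 in WT for Il12b, and 23 and 2 for Il27. Each share divides by the 6 h mean of the same genotype, so it also carries any genotype difference at 6 h. The part of these 22 genes in the resting differences of Il12b and Il27 was not tested. Among F121A libraries, replicates 3 and 4 were the lowest for Il12b, at 0.0146% and 0.0353%. They were also the lowest for Il27, at 0.0205% and 0.0479%, and for the median of the 22 genes, at 0.1135% and 0.1326%. The other F121A libraries were at 0.2168% to 0.3592% for Il12b, 0.1713% to 0.334% for Il27 and 0.2376% to 0.456% for the 22 genes.

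**Figure D5:**
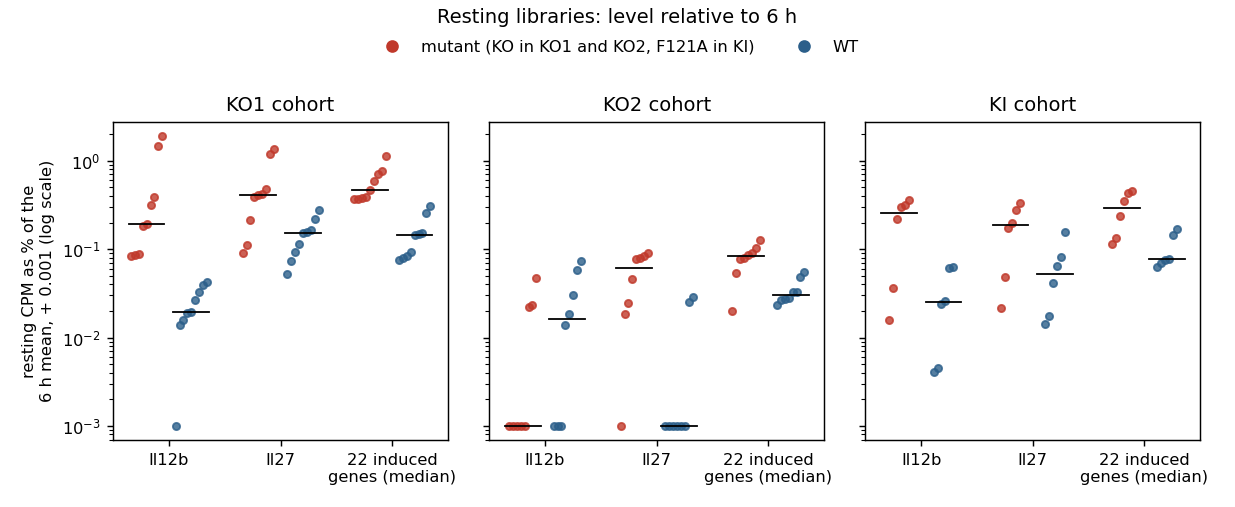
Resting CPM as a percentage of the 6 h mean of the same genotype, plus 0.001 (vertical, log scale), for Il12b, Il27 and the median of 22 strongly induced genes (horizontal). Points are libraries sorted by value and black lines are medians; the 22 genes had a median of 0.292% in F121A and 0.0755% in KI WT.

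Receptor, signalling and regulator genes of the family were read from 4 lists. Stimulation for 6 h raised 10 of 10 JAK-STAT genes in WT of each cohort and 3 of 4 tested receptor chains, while Il6st, the shared gp130 chain, fell. Il12rb1, a chain of the interleukin-12 and interleukin-23 receptors, rose by 4.43 in KO1 WT, 6.07 in KO2 WT and 8.41 in KI WT (log2). Of 16 tested activators of the family genes, 12 rose in KO1 WT and 13 in KO2 WT and in KI WT, and of 10 repressors 9, 10 and 8 rose. Over all genes, 3515 of 13693 rose in KO1 WT, 3505 of 10794 in KO2 WT and 4217 of 11500 in KI WT. Between genotypes in KO1, edgeR called 0 genes of the lists at any time; unadjusted p below 0.05 took at most 1 receptor chain, 1 JAK-STAT gene, 2 activators and 3 repressors at a time, and DESeq2 called 0.

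In KO2 at rest, 3 activators rose (Batf2 1.21, Stat2 0.61 and Irf9 0.54), 1 fell (Junb, -0.38), and among repressors Nfil3 rose (0.70) and Atf3 fell (-0.67). At 6 h Il12rb1 rose (0.52), as did Stat4 (1.02), the STAT activated by interleukin-12. The feedback inhibitors Socs1 (-0.76) and Socs3 (-0.88) fell. Of 16 activators 2 rose and 4 fell, among them Fos (-0.66), Junb (-0.57) and Irf8 (-0.53), a factor required for Il12b transcription, and 1 of 10 repressors rose (Il10, 0.47). At 24 h Il23r rose (0.94), Tyk2 (-0.66) and Socs1 (-0.67) fell, Nfkbiz (0.92), Batf (0.77) and Rel (0.57) rose, and Fos (-0.77) and Jun (-0.46) fell. Il10, a cytokine that restrains Il12b transcription, rose by 3.70 ± 0.24 at 24 h (edgeR adjusted p = 4.47e-19), beside Ets2 (0.46) and Atf3 (0.32), and Il10ra fell (-0.72). List medians at 6 h were 0.33 for receptor chains, 0.11 for JAK-STAT genes, 0.00 for activators and -0.11 for repressors, against 0.02 over all genes, of which 823 rose and 836 fell of 10794. Over all genes, 414 rose and 480 fell at rest (8.28% called), and 676 rose and 546 fell at 24 h (11.3% called).

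In KI at rest, Rela (0.87) and Nfil3 (0.98) rose, where 2.94% of all genes were called, 272 of them higher and 66 lower. At 6 h Il12rb1 rose (0.94), 6 of 10 JAK-STAT genes rose (among them Stat5b 0.71, Stat5a 0.77 and Tyk2 0.48), 6 of 16 activators rose (among them Rela 1.42, Stat2 0.43 and Irf5 0.33), and none of these fell. Over all 11500 genes, 11.5% were called at 6 h, 921 of them higher and 401 lower in F121A. Of 10 repressors, 7 rose at 6 h, among them Nfil3 (1.20), Etv3 (0.88) and Il10 (1.57), and 0 fell. The list medians at 6 h were 0.56 for receptor chains, 0.46 for JAK-STAT genes, 0.35 for activators and 0.69 for repressors, against 0.02 over all genes. At 24 h Il23r (0.83), Stat3 (0.32), Fos (0.91), Irf5 (0.35) and Irf1 (0.31) rose, and 3 of 10 repressors rose: Maf (0.92), Atf3 (0.67) and Nfil3 (0.58). Of all genes, 7.2% were called at 24 h, 393 of them higher and 435 lower. Genes called among activators and among repressors were thus higher in F121A at 6 h, when Il12a was lower than in WT. A link between these differences was not tested.

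Markers of other cell types were read beside these results, since dendritic cells and monocytes can also make interleukin-12. The summed level of 11 dendritic cell markers at 6 h in KO2 was 40.8 to 62.6 CPM in KO and 21.4 to 32.95 CPM in WT, and at 24 h in KI it was 63.0 to 76.5 CPM in F121A and 80.2 to 180.0 CPM in WT, both without overlap. Ccr7 made up most of both differences, with log2 fold changes of 1.39 in KO2 at 6 h and -0.87 in KI at 24 h. Without Ccr7 and Itgax, left out after the data were seen, the sums were 7.28 to 15.4 CPM in KO and 7.54 to 13.8 CPM in WT of KO2 at 6 h, and 6.51 to 8.80 CPM in F121A and 5.77 to 8.60 CPM in WT at 24 h. At 6 h in KI, when Il12a was lower in F121A, the same reduced sum was 11.55 to 17.6 CPM in F121A and 16.95 to 24.3 CPM in WT. Xcr1, a marker of cross-presenting dendritic cells and part of that sum, was at 6.635 to 10.8 CPM in F121A and 13.01 to 18.8 CPM in KI WT at 6 h. It was the only 1 of 5 tested dendritic cell markers called there (log2 fold change -0.75, edgeR adjusted p = 0.000583), against 11.5% of all genes. Of the other markers in that sum, mean Flt3, Clec10a, Dpp4, Clec9a, Itgae and Siglech were higher in F121A than in WT. Mean Zbtb46 and Cd209a were lower in F121A, and each of these means was at most 2.191 CPM in either genotype. Mean Xcr1 was 2.01 CPM in F121A and 1.91 CPM in WT at rest, and 4.64 and 4.73 CPM at 24 h, so it too rose with stimulation. Of the same list, Clec9a and Cd209a averaged at most 0.55 CPM in every KO2 and KI group. Of 6 tested monocyte markers in KO2 at 24 h, 5 rose, and their sum was 30.1 to 45.7 CPM in KO and 14.3 to 24.0 CPM in WT. Over all 10794 genes, 676 rose and 546 fell in KO2 at 24 h. Of 9 tested macrophage markers, 6 fell in KO2 at 6 h (C1qa, -0.67) and 4 at 24 h (C1qa, -1.19), with list medians of -0.52 and -0.35, and 7 rose in F121A at 6 h. Not all fell in KO2 at 6 h, where mean Cd68 was 917.5 CPM in KO and 674.4 CPM in WT, and Mertk 141.0 and 102.9 CPM. At 24 h Cd68 was at 421.5 and 351.7 CPM and Mertk at 88.8 and 126.9 CPM. Over all genes, 823 rose and 836 fell in KO2 at 6 h, and 921 of 11500 rose and 401 fell in KI at 6 h. In resting KO1 the summed neutrophil markers were at 299.9 to 1964 CPM in KO libraries and at 218.3 to 356.3 CPM in WT libraries, with a list median log2 fold change of 1.49. Of the 9 tested there, edgeR called 0, 6 passed at an unadjusted p below 0.05 and DESeq2 called 1. Over all 13693 genes, edgeR called 0.0219% and 846 passed at that unadjusted p. In KI at 6 h, 3 of 6 tested neutrophil markers fell and 1 rose in F121A (list median -0.64). T, NK and B cell markers stayed at or below 25.2 CPM in each library. The part of cell composition in the genotype effects was not tested.

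Across the 18 groups, with each cohort centred on its mean, the genes most like each member in log2(CPM + 1) were described by Pearson's r over 6252 genes. They were Mmp13 (0.988), Bcl2a1b (0.987) and Vcam1 (0.981) for Il12b, and Syk (0.967), A530040E14Rik (0.963) and Ccl3 (0.958) for Il12a. For Il27 they were Vcam1 (0.995), Sdc4 (0.992) and Mmp13 (0.991), for Ebi3 Gpr31b (0.980), Ehd1 (0.980) and Batf (0.976), and for Il23a Gabpb1 (0.883), Mier3 (0.879) and St3gal1 (0.865). Among members, Il12b and Il27 were the most alike (0.984) and Il23a and Ebi3 the least (0.465). All 18 groups share the 3 time points, and no p is given for these values.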

How the data were processed

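The authors deposited raw counts per gene symbol and library, 1 table per cohort, made with TopHat and HTSeq on mm10 per the submitters' processing notes, with versions and strand setting not given in the sources used here. From these counts, fits were made in edgeR 4.0.16 (R 4.3.3, limma 3.58.1) with filterByExpr, TMM scaling, a mean for each of 6 groups per cohort, quasi-likelihood tests and Benjamini-Hochberg adjustment over all genes tested. The 3 repeats of a KO1 culture were summed (n = 3 per group), and KO2 and KI libraries were units. CPM use all counts in genes, without TMM, and depth limits the precision of members with few counts. Chi-square over its degrees of freedom was at least 2.79 in each of 467 pairs of libraries within groups, so none was counted as a copy. Standard errors were taken from the log2 fold change and its F statistic. The scripts were tested on simulated data. Alternatives were DESeq2 1.42.0, its size factors, no filter beyond 1 count, the 2 compared groups alone, a replicate block, summed or single libraries, left-out libraries, and 2 samples with conflicting labels left out. Scaling by total counts was chosen after seeing the data. Named genes are the 5 members, Becn1 and Ddx3y and Xist as checks, list genes called (all if 5 or fewer, otherwise the 3 of smallest adjusted p) and the 3 genes most like each member; marker genes were named after their values were seen. Spi1, Adgre1 and Chil3 of the lists were not found in the tables. A gene of the lists is not reported here by name. Members and lists were chosen with earlier results of these data known.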

Additional observations from a re-analysis of the deposited data

Results flagged for a closer look

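Among 43 groups of a size that allows the comparison, 2 held a library far from the rest of its group, and chance gives about 1 in 20. F121A replicate 3 at 24 h had 115.1 CPM of Il12b, against a median of 54.2 CPM in the other F121A libraries, and still lay below every WT library. WT replicate 5 of KI at 6 h had 1316 CPM of Il27, against a median of 2354 CPM in the other WT libraries.

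The effect of genotype differed between times for several members, by the interaction test in edgeR. In KO2 the effect on Il27 differed from that at rest by -2.28 at 6 h and by -2.41 at 24 h on the log2 scale, and the effect on Ebi3 by 0.80 at 24 h. In KI the effect on Il12b differed from that at rest by -2.87 at 6 h and by -3.86 at 24 h, and the effect on Il27 by -2.18 at 24 h. The effect of KO in KO2 differed from that of F121A in KI for Il12a by 2.81 at 6 h and 4.67 at 24 h, for Il23a by 6.12 at 6 h and for Il12b by 3.46 at 24 h. The Il23a value rests on few counts, 49 in KO and 4 in WT of KO2, and 3 in F121A and 34 in WT of KI.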

How the results depend on the processing

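The alternatives other than leaving out 1 culture or library in turn included some with fewer libraries, such as the 2 compared groups alone. Over all of them, 888 log2 fold changes of members kept their direction and their side of the threshold, 28 gained a call, 8 lost it and 11 reversed. With 1 culture or library left out, these numbers were 3171, 19, 12 and 56. Where a value changed, the cause was not tested unless fewer genes or samples entered the fit. In KO1, where edgeR called 0 members between genotypes or in the interactions, DESeq2 called 2 at 0 h. Without the filter 3 were called at 0 h, 1 at 24 h, 2 in the 6 h interaction and 1 in the 24 h interaction. With single KO1 libraries as units, which counts repeats of 1 culture as separate, the numbers were 3, 1, 1 and 2. In KO2 a fit of the compared groups alone called 0 members at 0 h, against 1, because Il27 did not pass its filter. Scaling by total counts and summing libraries by number each called 0 in the 6 h interaction, against 1, and 1 at 24 h, against 2, where DESeq2 called 4. In KI, summed libraries called 1 and the compared groups alone 0 at 0 h, against 2. At 6 h, DESeq2, summed libraries and the compared groups alone each called 2 and the fit without the filter 3, against 1. In the 6 h interaction, summed libraries called 0 and the fit without the filter 2, against 1. For the KO2 effect minus the KI effect, DESeq2 called 1 at 0 h, against 0, and 1 at 6 h, against 2.

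Reversals on the log2 scale were among values smaller in size than their SE, such as Il12b at 6 h between KO1 genotypes (-0.30 ± 0.73). For Ebi3 in KO1, leaving out repeats 1 and 2 of resting S37 gave -0.1485 between genotypes at 0 h and 0.3438 in the 6 h interaction. Scaling by total counts gave 0.0281 for Il27 at 24 h in KO1, 0.1224 for Ebi3 in KO1 KO between 24 h and 6 h, -0.0977 for the Ebi3 24 h interaction in KO1, and 0.0138 for Il12a at 0 h and 0.2258 for Ebi3 at 6 h in KO2. Ebi3 at 6 h in KO2 was also at 0.0796 with summed libraries and 0.0582 without the filter. TMM lowered KO2 genotype effects by 0.18 at 0 h and 0.22 at 6 h relative to total counts. For the Ebi3 24 h interaction in KO1, DESeq2 size factors gave -0.0045 and the replicate block -0.0688. Deviations of samples with the same number correlated at -0.117 to 0.139 in KI, -0.137 to 0.223 in KO2 and -0.143 to 0.288 in KO1. In KO1, 10 of 18 pairs were over 0.1 and 14 of 18 were the best match for their number, a hint from the data that the design does not state. Not every pair was over 0.1 in any cohort, so the block stayed an alternative. The replicate block called Il12b in the KO2 24 h interaction (2.42, edgeR adjusted p = 0.0306), unlike the fit without a block (adjusted p = 0.0706) and the fit of libraries summed by number (2.54, adjusted p = 0.194).

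With each culture or library left out in turn, members called ran from 0 to 1 in the KO2 6 h interaction and from 1 to 2 in KI at 0 h, at 6 h and in both interactions. In KO1 genotype comparisons, Ebi3 ran from -0.2109 to 0.5788 at 0 h and from -0.3430 to 0.6277 at 6 h. At 6 h Il12a ran from -0.0445 to 1.0325 and Il12b from -0.6961 to 0.7349, and at 24 h Il23a ran from -0.2608 to 3.7693 and Il27 from -0.2930 to 0.3162. Ebi3 ran from -0.3082 to 0.0220 in KO1 KO between 24 h and 6 h, from -0.9218 to 0.7328 in the KO1 6 h interaction, from -0.5714 to 0.8185 in the KO1 24 h interaction, from -0.0838 to 0.0563 in KO2 at 6 h and from -0.1476 to 0.0052 in the KI 24 h interaction. Il12a ran from -0.953 to 0.8803 in KO2 at 0 h and Il12b from -0.0686 to 1.3478 in the KO2 6 h interaction. Without S35, Il23a no longer passed between 24 h and 6 h in KO1 WT (-2.11, edgeR adjusted p = 0.248). Il27 at 24 h in KO2 was called by DESeq2 (adjusted p = 0.0272) and in 8 other edgeR settings, at 0.0358 to 0.0499. The KO2 effect minus the KI effect was not run with left-out libraries, the block or 2 groups alone. Depth limits resting Il12a and Il23a most.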
